A study of Homo sapiens with 11 samples.

Results

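The forkhead, SOX and T-box genes are families of transcription factors, and 81 of their members were described here among 19645 protein-coding genes in HK2 cells. Members were taken by gene name: FOX with a letter from A to S and a number, SOX with a number, or TBX with a number, leaving out SOX9. Of 105 names that fit, 81 were protein-coding genes on the 24 chromosomes, 20 were noncoding genes or pseudogenes, and 4 had no match in the GRCh37 annotation. The 81 genes were 50 forkhead, 18 SOX and 13 T-box genes. FOXL2NB was taken by its name, although it is a neighbour of FOXL2 and not a forkhead gene. The FOXD4-like genes and FOXO3B are close copies of FOXD4 and FOXO3, so their reads may be shared and their values are uncertain.

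HK2 is an immortalised human cell line of the proximal kidney tubule, and all samples came from 1 condition, cells grown in DMEM-F12 medium with serum, antibiotics and DMSO. RNA-seq had 2 libraries, with 5.67 and 5.52 Gb of aligned bases, and the histone marks H3K4me3, H3K27ac and H3K27me3 were each mapped by ChIP-seq in 2 replicates. With 1 condition there was no contrast, so every value here is a description, set beside the same count over all protein-coding genes. Whether the replicates came from separate cultures was not given in the sources used here, so their spread may be technical. The tubule label was checked against markers: the tubule lineage factors PAX8 (100.2 and 104 FPKM) and LHX1 (61.9 and 60.1 FPKM) were present, while HNF4A, the receptor LRP2 and the transporters SLC22A6 and SLC22A8 were listed at 0 in both libraries. Of 10 proximal tubule markers, 2 had at least 1 FPKM in both libraries, and the leukocyte, endothelial and podocyte markers that were found were all under 0.1 FPKM. At least 1 FPKM in both libraries was found for 3 of 6 tubule lineage, 3 of 4 epithelial and 2 of 4 mesenchymal markers. Of the epithelial markers, KRT8 was at 179 and 184 FPKM and KRT18 at 68.0 and 44.2. EPCAM was at 39.9 and 41.4 FPKM and CDH1 at 0.210 and 0.283. Of the mesenchymal markers, VIM was at 709 and 1133 FPKM and COL1A1 at 40.3 and 39.9. PDGFRB was at 0.933 and 0.693 FPKM, and COL1A2 was listed at 0 in both libraries.

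Forkhead factors bind DNA through a winged-helix domain, SOX factors bend DNA through an HMG box, and T-box factors bind through the domain that gives them their name. Each family is known for setting cell identity in the embryo, and in the kidney members such as FOXD1, FOXC1, SOX4, SOX11 and TBX18 are known from the mesenchyme and stroma of the developing organ. H3K4me3 and H3K27ac mark promoters that are open for transcription, while H3K27me3 is laid down by the Polycomb complex PRC2 over genes held silent. Promoters that carry H3K4me3 together with H3K27me3 are called bivalent, and they are known from developmental regulators. In bulk samples, both marks on 1 allele and a mixture of cells with either mark cannot be told apart, and likewise fewer expressing cells and less RNA per cell.

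The promoters below show both ends of the range within each family. For each family they are the member of highest FPKM with both H3K4me3 and H3K27ac, and the member under 0.1 FPKM with the most H3K27me3 around its start, out of those that could be shown from the RefSeq promoter table. Each sequence is the 250 bases upstream of the RefSeq start (GRCh38.p14 table), written 5′ to 3′ on the gene's strand, and each matched GRCh37 at exactly 1 place on its chromosome, whose coordinates are given. Capitals mark the GC box GGGCGG, the CCAAT box and the TATA box TATAAA on either strand. Over the 14653 protein-coding genes with such a window, 57.0% held GGGCGG, 34.5% CCAAT and 8.97% TATAAA, so a match is common and is a description of these letters only.
FOXE1 (active): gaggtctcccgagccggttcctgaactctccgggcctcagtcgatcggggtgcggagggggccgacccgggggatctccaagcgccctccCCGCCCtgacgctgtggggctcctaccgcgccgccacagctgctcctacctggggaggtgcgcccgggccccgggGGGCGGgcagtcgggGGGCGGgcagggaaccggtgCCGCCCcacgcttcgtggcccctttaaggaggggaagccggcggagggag
FOXF2 (silent): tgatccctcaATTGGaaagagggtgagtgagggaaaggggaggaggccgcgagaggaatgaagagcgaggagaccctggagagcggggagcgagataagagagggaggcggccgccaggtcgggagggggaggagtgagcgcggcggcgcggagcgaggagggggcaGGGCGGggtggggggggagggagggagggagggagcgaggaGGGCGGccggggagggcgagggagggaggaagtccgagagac
SOX4 (active): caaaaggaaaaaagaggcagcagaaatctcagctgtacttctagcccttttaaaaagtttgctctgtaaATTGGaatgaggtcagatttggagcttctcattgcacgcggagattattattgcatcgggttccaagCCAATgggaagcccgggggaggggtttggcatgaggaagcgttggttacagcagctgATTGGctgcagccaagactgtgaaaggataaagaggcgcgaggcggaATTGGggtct
SOX21 (silent): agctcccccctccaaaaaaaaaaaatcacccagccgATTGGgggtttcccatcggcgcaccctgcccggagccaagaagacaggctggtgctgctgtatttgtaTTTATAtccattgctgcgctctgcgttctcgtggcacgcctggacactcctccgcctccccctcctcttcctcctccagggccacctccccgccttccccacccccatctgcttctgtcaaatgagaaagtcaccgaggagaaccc
TBX18 (active): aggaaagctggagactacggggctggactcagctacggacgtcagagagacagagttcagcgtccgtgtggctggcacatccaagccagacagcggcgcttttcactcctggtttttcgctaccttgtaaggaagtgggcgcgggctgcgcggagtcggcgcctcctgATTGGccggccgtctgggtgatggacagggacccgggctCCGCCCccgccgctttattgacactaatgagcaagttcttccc
TBX5 (silent): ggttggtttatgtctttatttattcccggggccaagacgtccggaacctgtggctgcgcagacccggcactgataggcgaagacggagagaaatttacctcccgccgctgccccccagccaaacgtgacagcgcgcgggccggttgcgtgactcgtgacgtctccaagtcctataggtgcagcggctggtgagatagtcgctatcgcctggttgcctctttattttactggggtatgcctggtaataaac

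The FOXE1 window (ENSG00000178919, chr9:100615258-100615507, plus strand) had 4 GC boxes, and H3K4me3 peaks covered all 250 bases in both replicates. H3K27ac covered 250 of them in replicate 1 and 50 in replicate 2. The SOX4 window (ENSG00000124766, chr6:21593732-21593981, plus strand) had 4 CCAAT boxes and no GC box, at 48.8% G and C against 75.6% for FOXE1. In replicate 1, H3K4me3 and H3K27ac each covered its 250 bases, whereas replicate 2 covered 28 bases with H3K4me3 and 0 with H3K27ac. The TBX18 window (ENSG00000112837, chr6:85474317-85474566, minus strand) had 1 GC box and 1 CCAAT box, with H3K4me3 over 250 and 190 bases and H3K27ac over 250 and 0 bases in replicates 1 and 2. None of these windows had an H3K27me3 base in either replicate.

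The silent genes were chosen for their H3K27me3, so the mark at or near their windows follows from that choice. FOXF2 (ENSG00000137273, chr6:1389561-1389810, plus strand) had H3K27me3 over all 250 bases in both replicates, H3K4me3 over 81 and 96 bases, and no H3K27ac. SOX21 (ENSG00000125285, chr13:95364800-95365049, minus strand) held the only TATA box among the 6 windows, with H3K27me3 over 250 bases in both replicates and H3K4me3 over 0 and 214 bases. TBX5 (ENSG00000089225, chr12:114845818-114846067, minus strand) had H3K27me3 over 0 bases in replicate 1 and 250 in replicate 2 and no base under the other marks. Its RefSeq start lies 375 bases from the nearest start in the GENCODE annotation, and none of the 3 motifs was found in its window.

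RNA levels of the families spanned from 39.4 FPKM to 0. FPKM is scaled by transcript length, so levels can be compared roughly between genes. The value of a gene is a sum over its transcripts, short ones included. At FOXP1, a transcript of 535 bases held 31.8% of the sum in library 1 and 25.9% in library 2. Of the 81 genes, 31 (38.3%) had at least 1 FPKM in both libraries, against 58.8% of all protein-coding genes. Under 0.1 FPKM in both libraries were 34 (42.0%), against 28% of all, and 25 of these (30.9%) were listed at 0 in both, against 19.6%. The other 16 lay between. The median of the mean FPKM was 0.257 over members and 3.32 over all protein-coding genes, and 10 members (12.3%) had a mean of at least 10 FPKM, against 31.7%. By family, 22 of 50 forkhead, 6 of 18 SOX and 3 of 13 T-box genes had at least 1 FPKM in both libraries. Of 32 members with a mean of at least 1 FPKM none was over 2-fold apart between libraries, against 1.64% of the 11748 such genes, and TBX19 was furthest apart, at 1.34 and 0.729 FPKM. Among the 30 pairs of neighbours in the order of the 31 expressed members, 15 had library ranges that overlapped.

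**Figure D1:**
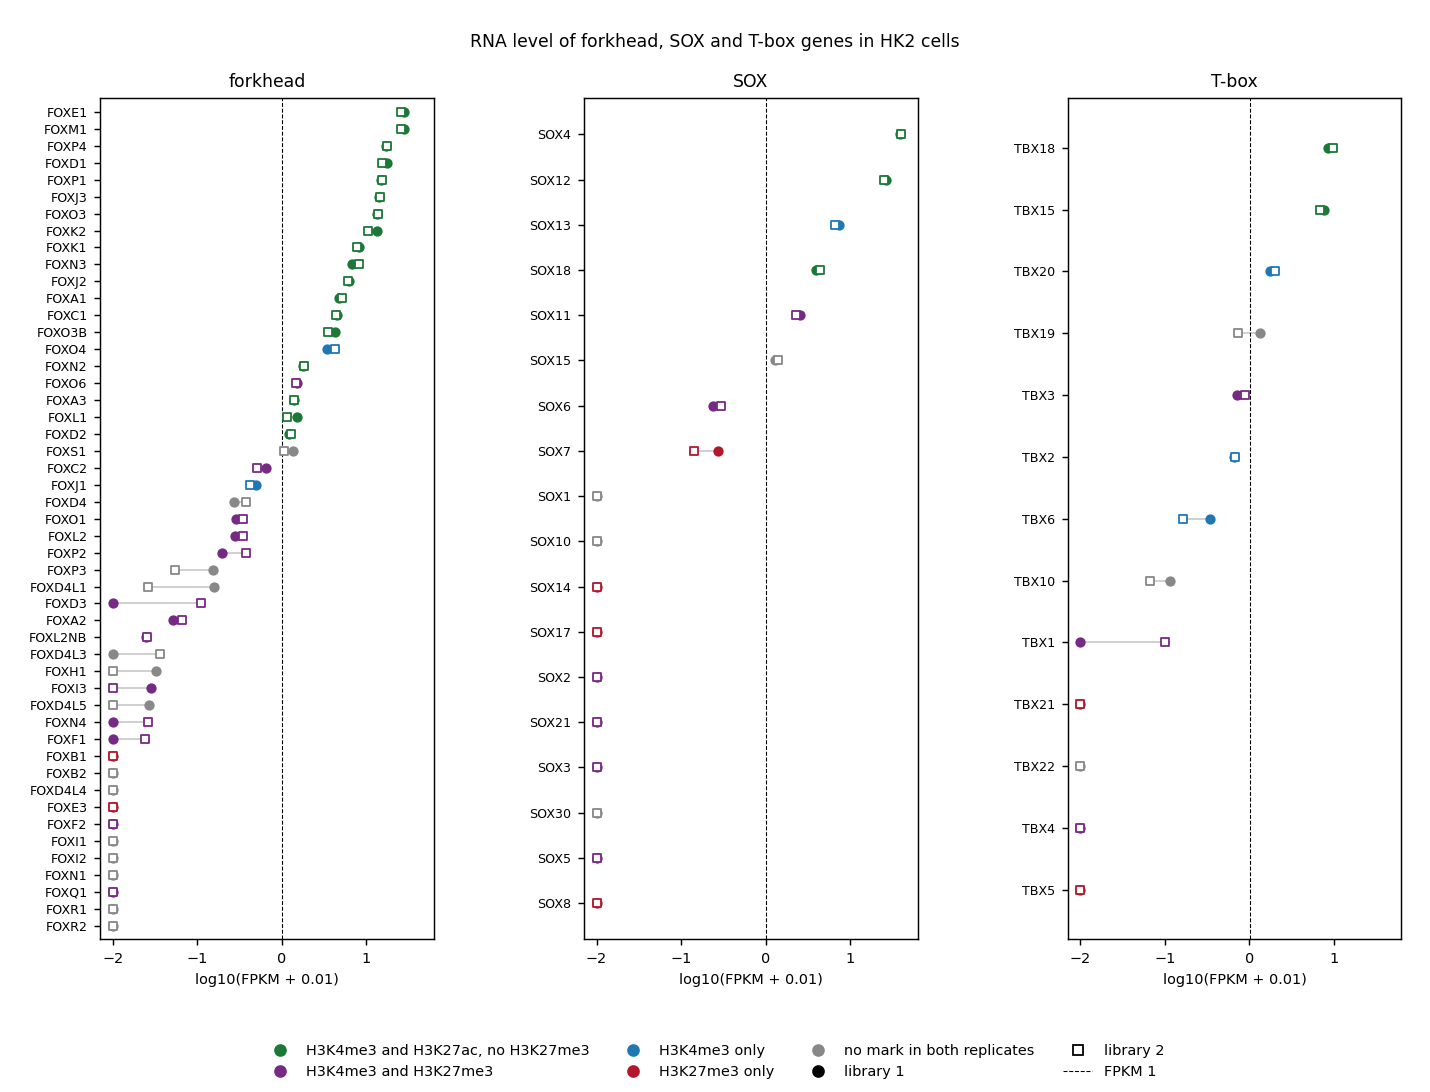
RNA level of each named gene as log10(FPKM + 0.01), by family, with a filled circle for library 1, an open square for library 2 and a dashed line at 1 FPKM; colour gives the marks found in both replicates near the start. Genes right of the line are mostly green (H3K4me3 and H3K27ac), and those at the left edge, listed at 0, are purple, red or grey.

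SOX4, a SOXC factor of progenitor cells and of many carcinomas, had the highest level, at 39.0 FPKM in library 1 and 39.9 in library 2. That was above 91.9% of protein-coding genes. SOX12 of the same subgroup followed at 26.5 and 25.1 FPKM. SOX11, the remaining SOXC gene, was at 2.55 and 2.26 FPKM, so the library ranges of the 3 genes did not overlap. Of the SOXD genes, SOX13 was at 7.38 and 6.67 FPKM, SOX6 at 0.226 and 0.287, and SOX5 was listed at 0 in both. SOX18, a factor of endothelial development, was at 3.98 and 4.34 FPKM, while the other SOXF genes, SOX7 and SOX17, were at 0.262 and 0.133 FPKM and listed at 0. SOX15 was at 1.27 and 1.38 FPKM. SOXB1 genes of stem and neural cells (SOX1, SOX2, SOX3) and the SOXE genes SOX8 and SOX10 were listed at 0 in both libraries, and so were SOX14, SOX21 and SOX30.

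Among forkhead genes, FOXE1, a thyroid factor, was highest at 28.2 and 25.7 FPKM, next to FOXM1, a driver of the G2 and M phases, at 28.1 and 25.6. Their library ranges overlapped, and that of FOXM1 also overlapped that of SOX12. FOXD1, a marker of the renal stroma, was at 17.6 and 15.2 FPKM, whereas FOXD2 was at 1.21 and 1.26 and FOXD3, a neural crest factor, was at 0 and 0.101. Broadly used forkhead genes lay at like levels: FOXP4 at 17.0 and 17.4 FPKM, FOXP1 at 14.99 and 15.19, and FOXJ3 at 14.2 and 14.7. FOXP2, a gene of the nervous system, was at 0.186 and 0.364 FPKM, and FOXP3, which sets regulatory T cells, was at 0.145 and 0.0452.

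The FOXO genes, the forkhead factors that act under insulin and AKT signalling, were unequal. FOXO3 was at 13.2 and 13.7 FPKM and its copy FOXO3B at 4.27 and 3.57. FOXO4 was at 3.46 and 4.24 FPKM, FOXO6 at 1.52 and 1.45, and FOXO1 at 0.280 and 0.341, lowest in both libraries. FOXK2 was at 13.2 and 10.6 FPKM and FOXK1, its close relative, at 8.15 and 7.75. FOXN3 had 6.85 and 8.11 FPKM and FOXN2 1.76 and 1.83, while FOXN1, the thymus factor, was listed at 0 and FOXN4 was at 0 and 0.0162. FOXJ2 was at 6.27 and 6.09 FPKM, and FOXJ1, which drives motile cilia, was at 0.488 and 0.416.

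Pioneer factors of the FOXA group also differed among themselves: FOXA1 had 4.72 and 5.19 FPKM, FOXA3 1.39 in both libraries, and FOXA2 0.0412 and 0.0555. FOXC1 was at 4.50 and 4.41 FPKM and FOXC2 at 0.641 and 0.493. FOXL1, FOXD2 and FOXS1 were the lowest of the expressed forkhead genes, FOXL1 at 1.498 and 1.142 FPKM and FOXS1 at 1.36 and 1.04.

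T-box genes were led by TBX18, known from ureteric mesenchyme and the epicardium, at 8.47 and 9.65 FPKM. TBX15, its close relative, was at 7.63 and 6.80, and TBX20, a heart factor of the same subgroup, was at 1.73 and 2.01. TBX22 of that subgroup was listed at 0. TBX3 was at 0.703 and 0.870 FPKM and TBX2 at 0.646 and 0.670, both repressors that are known for holding back senescence. The limb and heart factors TBX4 and TBX5 were listed at 0 in both libraries, as was TBX21, the factor of type 1 helper T cells. TBX6 was at 0.334 and 0.154 FPKM, TBX10 at 0.107 and 0.0575 and TBX1 at 0 and 0.0912.

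Low values rested on few reads. Of the 34 genes under 0.1 FPKM, 9 were above 0 in a library, and their 11 values above 0 rested on 275 to 742 aligned bases. SOX4 in library 1 rested on 1293950 bases. Differences among the genes under 0.1 FPKM were therefore not detectable at this depth.

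A mark was called at a gene where peaks of both replicates reached within 1 kb of any of its annotated starts. H3K4me3 was found at 52 members (64.2%), against 70.3% of all protein-coding genes, and H3K27ac at 25 (30.9%), against 55%. H3K27me3 was found at 30 members (37.0%), against 11.4% of all. Members had fewer annotated starts than other genes, with a median of 2 against 5, so fewer places where a peak could count. Among genes with 1 start position, 15 of 33 members (45.5%) had H3K27me3, against 12.1% of all such genes.

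Joined per gene, 24 members had H3K4me3 and H3K27ac without H3K27me3 (29.6%, against 52.2% of all), called active here. The bivalent pattern was found at 22 (27.2%, against 7.02%) and H3K27me3 alone at 8 (9.88%, against 4.33%). H3K4me3 alone was found at 6 (7.41%, against 11.1%), and none of the marks in both replicates at 21 (25.9%, against 23.8%). By replicate 1 alone, 9 members had H3K27me3 alone, 0 had H3K4me3 alone and 18 had no mark, and by replicate 2 alone 3, 14 and 12 did, so these counts depend on the replicate used. Forkhead genes divided into 19 active, 13 bivalent, 2 with H3K27me3 alone, 2 with H3K4me3 alone and 14 with none. SOX genes had 3 active, 6 bivalent, 4 with H3K27me3 alone, 1 with H3K4me3 alone and 4 with none, and T-box genes had 2, 3, 2, 3 and 3 in the same order.

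The replicates of a mark were not alike. Every member with H3K4me3 in replicate 1 had it in replicate 2, and 14 more (17.3%, against 7.72% of all genes) had it in replicate 2 only. They were FOXE3, FOXI1, FOXI2, FOXN1, FOXS1, SOX7, SOX14, SOX15, SOX17, SOX30, TBX5, TBX10, TBX19 and TBX21. H3K27ac went the other way: 12 members (14.8%, against 12.5%) had it in replicate 1 only, among them SOX11, SOX13, FOXO4, TBX2 and TBX3. The peak lists held 29130 and 73942 H3K4me3 peaks, with median widths of 1194 and 434 bp, and 57761 and 38639 H3K27ac peaks, with 1357 and 657 bp. The paper lists more aligned read pairs for replicate 1 of each mark. It also gives replicate 1 a larger share of reads in peaks for H3K27ac and H3K4me3. For H3K27me3 that share was the lowest of the marks in both replicates. The part of depth and of these shares in the calls was not tested. Of the 8 members with H3K27me3 alone, 6 were bivalent by replicate 2, and the part of these differences between lists in that count was not tested.

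**Figure D2:**
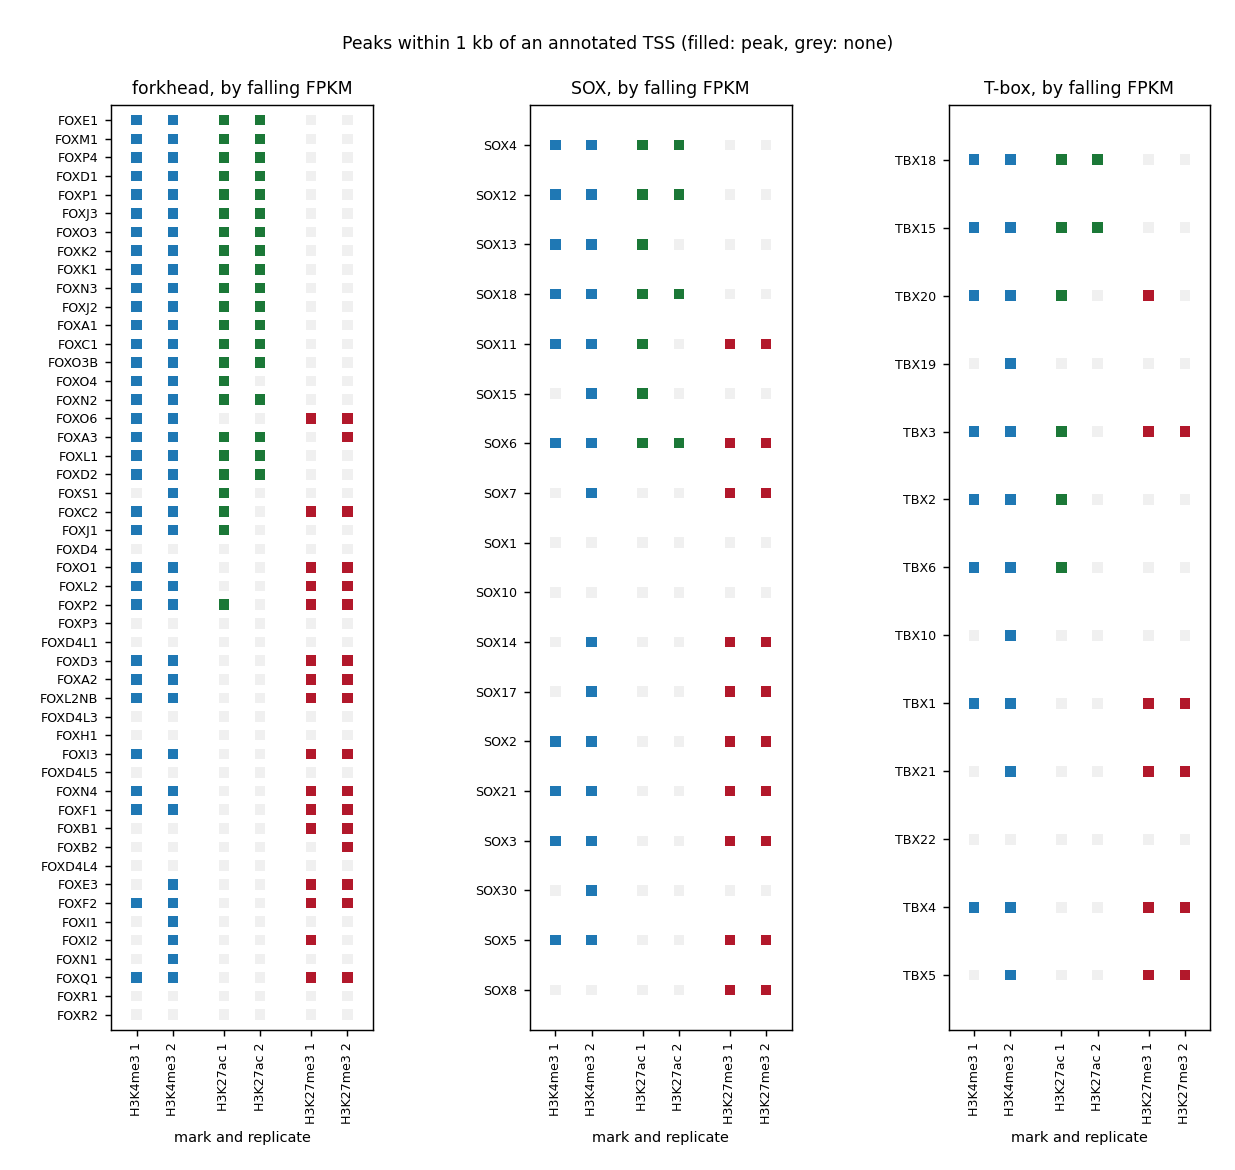
Peaks within 1 kb of an annotated start for each named gene, ordered by falling FPKM within each family, with columns for the 2 replicates of H3K4me3 (blue), H3K27ac (green) and H3K27me3 (red); grey squares mark no peak. Blue and green fill the upper rows, most red squares lie in the middle and lower rows, and the H3K4me3 replicate 2 column holds 14 blue squares that replicate 1 lacks.

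Marks and RNA were then set side by side. All 24 active members had at least 1 FPKM in both libraries, against 92.6% of all genes with that pattern, and of the 22 bivalent members 2 did, against 24% of all bivalent genes. Of the 31 expressed members, 29 (93.5%) had H3K4me3, 24 (77.4%) H3K27ac and 2 (6.452%) H3K27me3, and the shares over all expressed genes were 97.3%, 84.6% and 2.92%. Of the 34 members under 0.1 FPKM, 20 (58.8%) had H3K27me3, against 23.7% of all genes under 0.1 FPKM. H3K4me3 was at 13 of them (38.2%, against 17%) and H3K27ac at 0 of them, against 4.92%. Within 5 kb of a start, 22 of the 34 (64.7%) had H3K27me3 bases in both replicates, against 31.5%. Median levels were 7.71 FPKM for active members, 1.26 for those with H3K4me3 alone, 0.0303 for bivalent ones, and 0 for those with H3K27me3 alone or no mark.

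Around the canonical start, H3K4me3 peaks of replicate 1 covered 28 of the 31 expressed members (90.3%) at the start itself, against 95.8% of all expressed genes, and 16 (51.6%) at 1 kb upstream, against 43.7%. H3K27ac peaks of replicate 2 covered 10 of the 31 (32.3%) at the start but 16 (51.6%) at 500 bp upstream and 20 (64.5%) at 500 bp downstream. Over all expressed genes those shares were 46.3%, 42.8% and 55.6%, in the same order. In replicate 1, whose peaks were wider, 29 (93.5%) were covered at the start, against 93.1%. At the 33 genes under 0.1 FPKM with a canonical start, H3K27me3 covered 19 and 17 at the start in replicates 1 and 2, and 11 and 8 at 5 kb upstream. Over all genes under 0.1 FPKM, 20.2% and 16.0% were covered at the start, and 8.36% and 3.19% at 5 kb upstream.

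**Figure D3:**
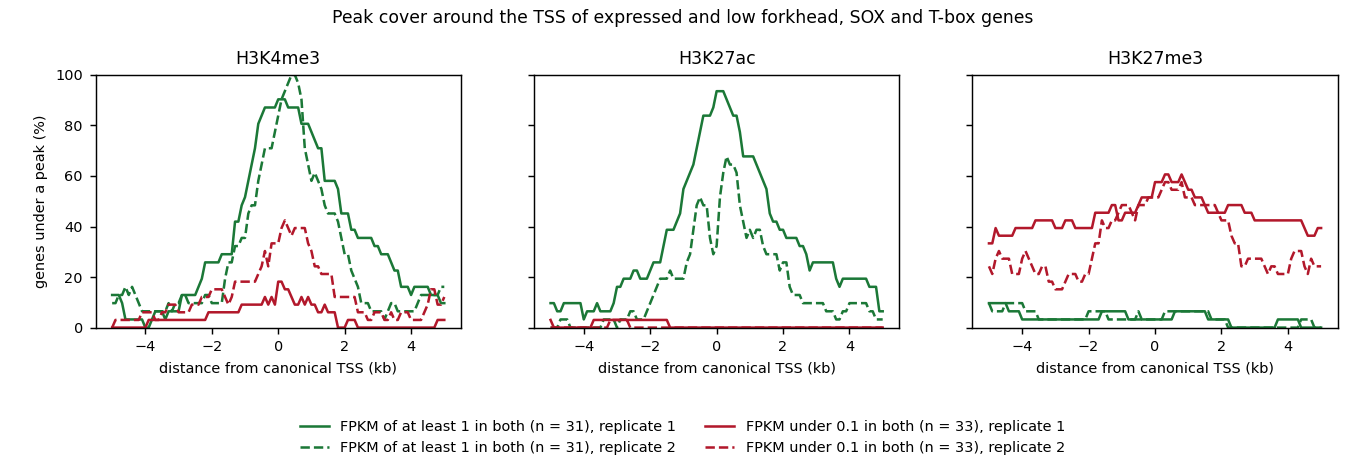
Share of genes under a peak, in percent, by distance from the canonical start in kb, for the 31 expressed members (green) and the 33 members under 0.1 FPKM (red), with solid lines for replicate 1 and dashed lines for replicate 2. Green lines peak at or near the start for H3K4me3 and H3K27ac, with a dip at 0 kb in H3K27ac replicate 2 (10 of 31 genes), and red lines lie above green ones across the window for H3K27me3.

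At the 30 members with H3K27me3, of which 20 were under 0.1 FPKM, the widest peak reaching the start window had a median of 6649 bp in replicate 1 and 3493 bp in replicate 2, against 3681 and 1899 bp over the 2239 protein-coding genes with the mark. FOXA2 lay under a peak of 41795 bp in replicate 1 and 6145 bp in replicate 2, FOXF1 under 34041 and 21103 bp, and SOX2 under 28868 and 4355 bp. The replicates gave very different widths for FOXA2 and SOX2 and closer ones for FOXL2 (15471 and 14568 bp). By the lower replicate of bases within 5 kb of a start, the members under 0.1 FPKM with the most H3K27me3 were TBX5 (13300 and 13241 bases), FOXL2NB (10344 and 9708), FOXF1 (10001 and 9282) and FOXA2 (10884 and 8943). TBX1 (9689 and 8888), SOX17 (10001 and 8138), SOX14 (8638 and 7697) and FOXF2 (10001 and 7479) followed. Windows are longer at genes whose starts lie far apart, so this order by bases is not an order by share covered.

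**Figure D4:**
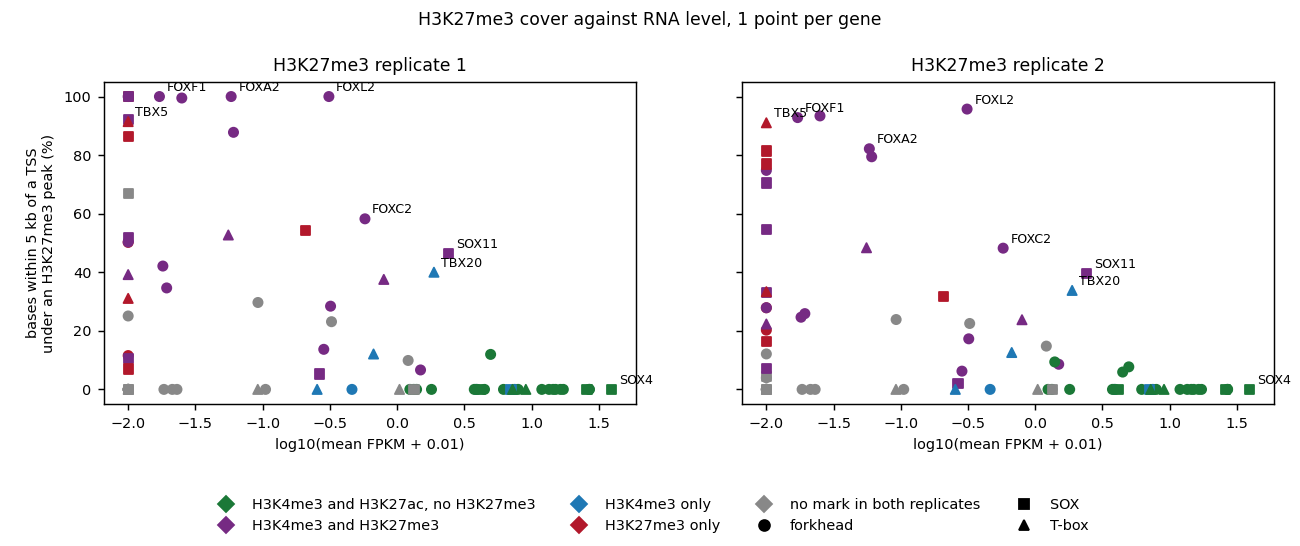
Bases within 5 kb of a start under an H3K27me3 peak, in percent of those bases, against log10(mean FPKM + 0.01), with a panel for each replicate and a point for each gene; shape gives the family and colour the marks found in both replicates. Points above 60% lie at or left of FOXL2 (0.301 FPKM), and SOX11 and TBX20 are the expressed genes with the most cover.

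FOXL2, an ovarian factor, lay within the same peak as FOXL2NB, 80 bp away on the other strand. H3K27me3 covered 100% and 95.7% of its 5 kb flanks, and its level was 0.268 and 0.334 FPKM. At the 22 bivalent members, H3K4me3 and H3K27me3 peaks of the same replicate shared a median of 1301 bases in replicate 1 and 2214 in replicate 2, and every such member shared at least 127. Over all 1380 bivalent genes the medians were 789.5 and 1076.

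Of the 31 expressed members 24 (77.4%) were active and 7 were not, and of the 11549 expressed protein-coding genes 9489 were active. Some active members had H3K27me3 nearby. SOX11 was bivalent in both replicates at 2.55 and 2.26 FPKM, with 4639 and 3968 H3K27me3 bases within 5 kb, of which 4639 and 3010 also lay under H3K4me3. FOXO6 was also bivalent and expressed, but shared 127 and 194 bases between the marks. TBX20 had H3K27me3 within 1 kb in replicate 1 only, under a peak of 10684 bp, although within 5 kb replicate 2 still had 3538 bases. FOXA3 had an H3K27me3 peak of 970 bp in replicate 2 only. FOXA1 and FOXS1 had none within 1 kb but 1410 and 908 bases, and 988 and 1478 bases, within 5 kb. SOX15 and FOXS1 were expressed without any mark called in both replicates, each with H3K4me3 in replicate 2 only and H3K27ac in replicate 1 only. SOX13 and FOXO4 had H3K4me3 in both replicates and H3K27ac in replicate 1 alone.

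SOX6 was the only member with all 3 marks in both replicates (1.23%, against 1.29% of all genes), and they lay at different starts. H3K27ac stood at chr11:16759298-16761083 in replicate 1 and chr11:16759616-16760716 in replicate 2. H3K27me3 stood over 100 kb away, at chr11:16627317-16630719 in replicate 1 and chr11:16628395-16630049 in replicate 2, and H3K4me3 peaks were found at both places. SOX6 was at 0.226 and 0.287 FPKM. FOXO1 was bivalent in both replicates, with 5901 and 3586 H3K27me3 bases within 5 kb and no H3K27ac base, whereas FOXO3 had 0 H3K27me3 bases and 8453 and 3648 H3K27ac bases.

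No peak of any mark was found in any replicate at 12 members (14.8%, against 15.1% of all genes). They were FOXD4, FOXD4L1, FOXD4L3, FOXD4L4, FOXD4L5, FOXH1, FOXP3, FOXR1, FOXR2, SOX1, SOX10 and TBX22. FOXD4 and its copies make up 5 of the 12, and only uniquely mapped reads were used for peaks, whose part in this was not tested. Beyond the 1 kb window but within 5 kb, H3K27me3 covered 6684 and 439 bases at SOX1, 2312 and 2251 at FOXD4 and 2968 and 2386 at FOXD4L1. H3K27ac covered 1372 and 1020 bases there at FOXP3 and 2281 and 649 at FOXH1. At FOXD4L3, FOXD4L4, FOXD4L5, FOXR1, FOXR2 and TBX22 no base of any mark lay within 5 kb.

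Several members sit side by side. On chromosome 16, FOXF1, FOXC2 and FOXL1 are transcribed in the same direction. FOXF1, a factor of lung and gut mesenchyme, was bivalent in both replicates at 0 and 0.0142 FPKM. FOXC2, 51.4 kb further, was also bivalent in both, at 0.641 and 0.493 FPKM. It had an H3K27ac peak at its start in replicate 1 only, with 1644 and 0 H3K27ac bases within 5 kb. FOXL1, 6.64 kb beyond FOXC2, was active at 1.498 and 1.142 FPKM with no H3K27me3 base within 5 kb in either replicate, against 5825 and 4823 bases at FOXC2. Peaks of H3K27me3 covered 26.9% and 23.6% of this span and those of H3K27ac 5.09% and 2.32%.

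On chromosome 6, FOXQ1 and FOXF2 were listed at 0 and bivalent, 74.8 kb apart, and FOXC1, 214 kb beyond FOXF2, was active at 4.50 and 4.41 FPKM. H3K27me3 covered 10001 and 7479 bases within 5 kb of the FOXF2 start but 0 and 592 at FOXC1. On chromosome 17, TBX2 and TBX4 lie 42.9 kb apart. TBX2 had H3K4me3 in both replicates, H3K27ac within 1 kb in replicate 1 only and 2282 and 2377 H3K27me3 bases within 5 kb. TBX4 was bivalent and listed at 0, with 13093 and 7457 such bases. The window of TBX4 is longer: the shares covered were 39.2% and 22.3% at TBX4 and 12.1% and 12.6% at TBX2. On chromosome 12, TBX3 and TBX5 lie 262 kb apart, both with H3K27me3 in both replicates, and the span held 2 H3K27ac peaks in replicate 1 and 0 in replicate 2. FOXE3 and FOXD2 on chromosome 1 lie 19992 bp apart, FOXE3 listed at 0 with H3K27me3 and FOXD2 active.

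**Figure D5:**
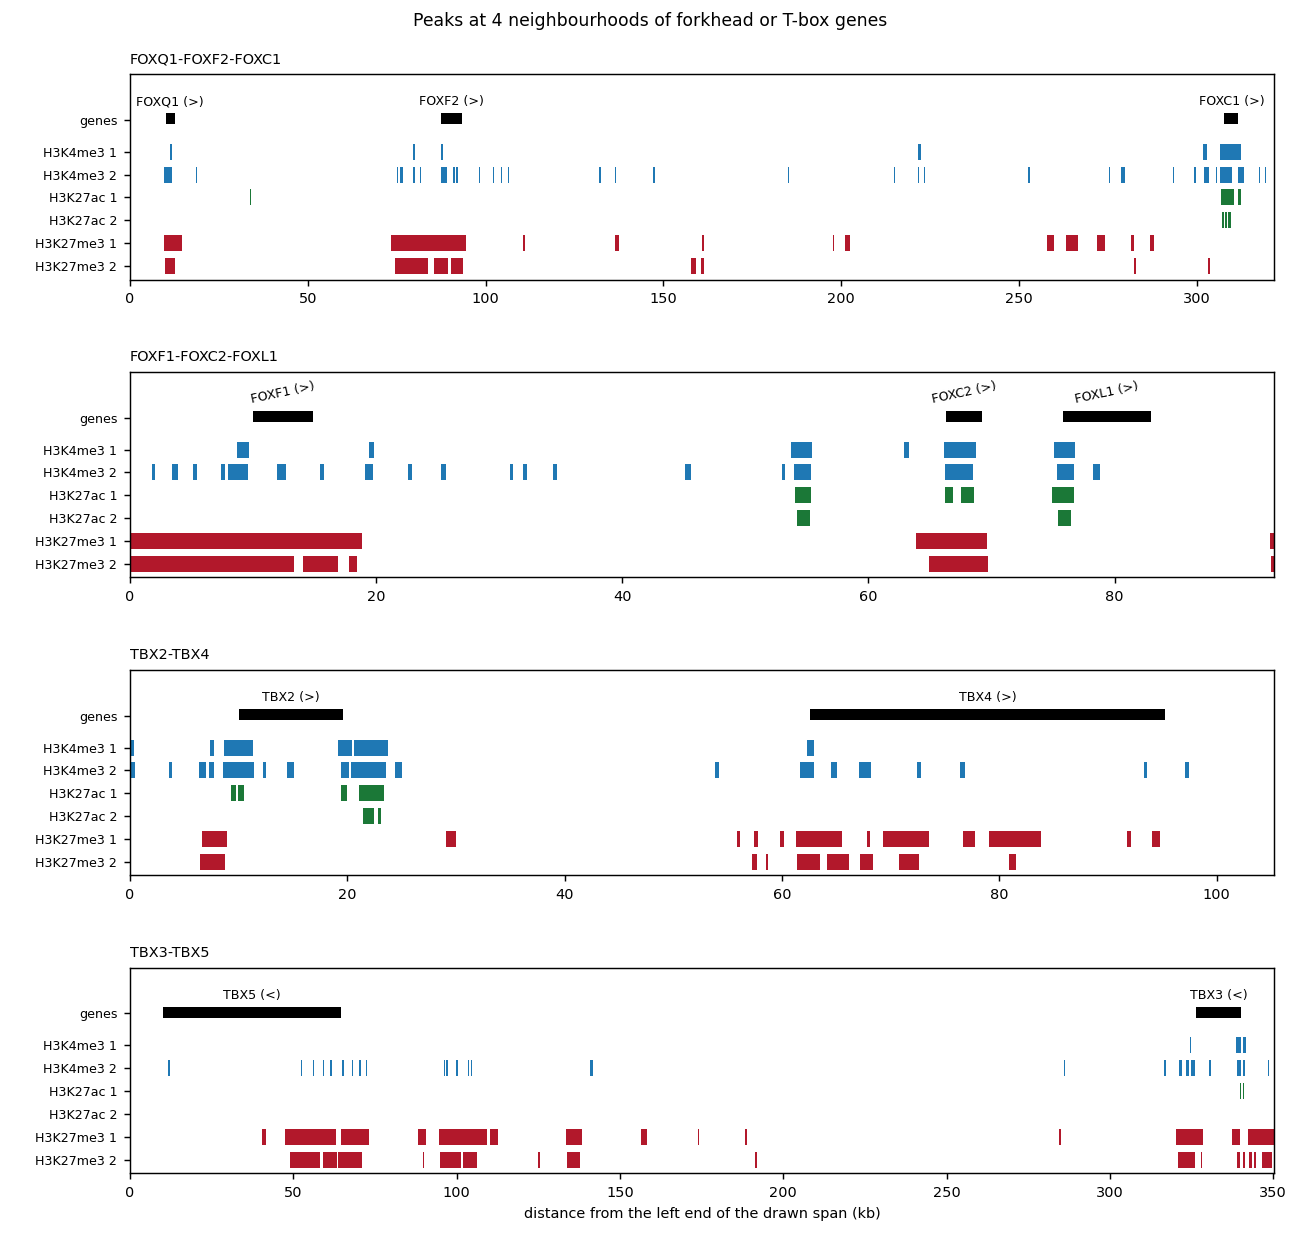
Peaks of each mark and replicate across 4 spans that hold neighbouring forkhead or T-box genes, drawn to scale in kb from the left end of each span; black boxes are the member genes with arrows for their strand, and other genes are not drawn. The H3K27me3 (red) over FOXC2 stops before FOXL1, 6.64 kb away, and short peaks return near the right end of that span in both replicates. H3K27me3 covers the start of TBX5 but not the TBX2 gene body.

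The width of H3K4me3 peaks was set beside that at other expressed genes. At the 29 expressed members with the mark, the widest H3K4me3 peak had a median width of 2822 bp in replicate 1 and 2321 bp in replicate 2, against 2455 and 1539 bp over the 11234 expressed protein-coding genes with it. The widest were at SOX11 (7804 bp), FOXO3 (7501 bp) and FOXP1 (7252 bp) in replicate 1, and at FOXO3 (5611 bp), FOXE1 (4345 bp) and SOX12 (4205 bp) in replicate 2. Between 1 and 50 kb from a start, expressed members had a median of 4 and 3 H3K27ac peaks in replicates 1 and 2, the same medians as over all expressed genes. FOXP1, with 67 annotated start positions, had 31 and 32 such peaks, and FOXD2 and TBX20 had 0 in both.

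The number of exons was counted as well. The longest transcript had a single exon in 28 of 81 members (34.6%), against 6.7% of protein-coding genes. These were 20 forkhead, 8 SOX and 0 T-box genes. Of the 31 expressed members 11 (35.5%) had a single exon, and of the 34 under 0.1 FPKM 12 (35.3%) did. The matching shares over all expressed genes and all genes under 0.1 FPKM are not given here. Whether these shares are usual for such genes was therefore not tested.

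Genes that work with the families were counted from lists, against 58.8% of all protein-coding genes at 1 FPKM or more in both libraries. All 18 genes of the FOXM1 and cell cycle list had at least 1 FPKM in both libraries and 17 were active, among them the FOXM1 partner MYBL2 at 113 and 111 FPKM and its target PLK1 at 25.0 and 30.7. All 18 regulators of the FOXO proteins were expressed and active, with AKT1 at 35.6 and 33.6 FPKM and YWHAZ, a 14-3-3 protein, at 518 and 527. Of 14 FOXO targets found, 13 were expressed, with TXNIP at 168 and 178 FPKM, and the exception was SESN3 at 0.634 and 0.427, which was bivalent. Of 8 SOX partners 6 were expressed, among them PAX6, bivalent at 7.45 and 7.32 FPKM, and the neural SOX partners POU3F2 and POU3F3 were bivalent, POU3F2 at 0.134 and 0.0555 FPKM and POU3F3 at 0.00144 and 0. Of 8 T-box partners 4 were expressed. The cardiac factors GATA4 and NKX2-5 had H3K27me3 alone and were listed at 0, HAND2 was bivalent at 0.0570 and 0 FPKM, and GATA6 was active at 1.68 and 1.86.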

How the data were processed

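RNA-seq (2 libraries) and ChIP-seq of H3K4me3, H3K27ac and H3K27me3 (2 replicates each) of HK2 cells were analysed; the input and HiChIP samples were not analysed here. The authors trimmed reads, aligned those of the RNA libraries with HISAT2 and deposited FPKM, TPM and coverage values per transcript from StringTie 1.3.3, after depletion of rRNA. Their methods give hg19 as the genome, but the transcripts deposited carry GENCODE version 27 positions of GRCh38. For ChIP-seq, peaks were called by MACS2 in each replicate, from uniquely mapped Bowtie2 alignments on hg19. The 6 deposited peak lists hold positions only, without a score, so the depth behind a peak is unknown.

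FPKM was summed per gene. Genes were joined by Ensembl identifier to GENCODE version 44 mapped to GRCh37, which gave gene types, starts and coordinates, and no GRCh38 position was used with peaks. Aligned bases of a library were computed as coverage over FPKM. Those of a gene were computed as coverage times transcript length, summed over its transcripts. The ChIP-seq label without a number was taken as replicate 1. A gene was called expressed at 1 FPKM or more in both libraries and low under 0.1 FPKM in both; a mark needs a peak with at least 1 bp within 1 kb of a start in both replicates. No test was made, because there is 1 condition. Promoter windows came from RefSeq and were found for 59 of 81 members (72.8%), none printed being on chromosome 8, so a check of base content or motifs over the members is void. The call of a peak near a start was tested on simulated peaks, with 1 peak and 1 start at a time. Counts of shared bases were not tested in this way. Alternatives changed the window, the overlap, the starts, the peak width, the replicates, the unit and the thresholds. Python 3.11.15, numpy 2.4.6, pandas 2.3.3 and matplotlib 3.10.9 were used.

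The members and the gene lists were chosen with earlier results of these data known. Values are given in full for the 15 expressed members of highest mean FPKM, expressed members with H3K27me3 in either replicate, the 8 members under 0.1 FPKM with the most H3K27me3, neighbouring members, and fixed subgroups of each family; other members named were chosen after their values were seen. Some genes are counted but not reported here by name.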

Additional observations from a re-analysis of the deposited data

How the results depend on the processing

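Counts of members with each mark, with the active or the bivalent pattern, or expressed stayed within 1.5 times the count given under every alternative tried. H3K4me3 ranged from 47 to 66 members, H3K27ac from 22 to 37 and H3K27me3 from 28 to 34. The active pattern ranged from 22 to 30, the bivalent pattern from 18 to 31, and expressed members from 23 (at least 2 FPKM) to 36 (TPM in place of FPKM). With a ChIP-seq replicate left out, the counts were 52 to 66 for H3K4me3, 25 to 37 for H3K27ac, 32 for H3K27me3, 23 to 29 for the active and 23 to 29 for the bivalent pattern, and with an RNA-seq library left out 31 to 32 members were expressed. Counts of the other patterns, whose alternatives were chosen after seeing the data, moved more with a ChIP-seq replicate left out: 0 to 14 members for H3K4me3 alone, 3 to 9 for H3K27me3 alone and 12 to 18 for none of the marks. With a peak in either replicate, 3 had H3K27me3 alone and 12 none of the marks.

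The median over members (0.257 FPKM) also moved. It was 0.301 with names that end after the number, and 3.74 when genes under a mean of 0.1 FPKM were left out, which removes the low genes by construction. In TPM it was 0.711, against 9.20 over all protein-coding genes, a change of unit that scales every gene of a library alike. With a library left out it was 0.262 to 0.287. No paired analysis was possible because the samples are of 1 condition and no result comes from a test. Peak lists without scores allow no stricter threshold, so peaks of at least 500 bp stood in for it. Genes at 0 are limited by the depth of the libraries.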

Other observations

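Noncoding genes named after members were listed as well. No share over all noncoding genes was computed, so whether their levels are usual for such genes was not tested. Of 17 found, 1 had at least 1 FPKM in both libraries, FOXD2-AS1 at 2.59 and 2.45 FPKM, above its neighbour FOXD2 at 1.21 and 1.26. FOXN3-AS1 was at 0.672 and 1.27 FPKM. FENDRR, the noncoding neighbour of FOXF1, was listed at 0 in both libraries, as were FOXC2-AS1, FOXD3-AS1, FOXP1-AS1, FOXN3-AS2, SOX5-AS1 and TBX5-AS1. TBX18-AS1 was at 0.491 and 0 FPKM, while TBX18 itself was at 8.47 and 9.65. Whether the counting used strand was not given in the sources used here, so reads of a gene and its antisense partner cannot be told apart.

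The division of a gene's FPKM among its transcripts differed between libraries for several members whose sums were close. FOXJ3 was at 14.2 and 14.7 FPKM, yet transcript ENST00000372573 held 53.3% of it in library 1 and 0.593% in library 2, and ENST00000361776 held 39.7% and 78.3%. For SOX13, ENST00000618875 held 73.9% and 14.0% and ENST00000367204 held 1.13% and 60.6%, with sums of 7.38 and 6.67 FPKM. For FOXP1, ENST00000475937 held 43.9% and 0%, with sums of 14.99 and 15.19. The 2 listed transcripts of FOXO3 above 0 divided it as 39.4% to 60.6% in library 1 and 9.99% to 90.01% in library 2. These members were chosen after their values were seen.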
